A study of Homo sapiens with 4 samples.

Results

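The genes described here encode the protein subunits of the mitochondrial ribosome (mitoribosome). They were taken as all rows of the deposited count table whose symbol is MRPS or MRPL followed by a number and at most 1 letter from A to C. Of 28395 rows, 78 had such a symbol and 76 were kept, 28 MRPS genes, counted by their name as small subunit, and 48 MRPL genes, counted as large subunit. A summed count under 40 left out MRPL45, the membrane anchor of the large subunit at the tunnel exit, with 0 and 7 counts in the ozonated olive oil libraries and 4 and 0 in the olive oil libraries. The other row left out was a small subunit gene with 4 counts in all. All 76 passed the filter on low counts, and 74 could be classed by origin, 45 with a bacterial counterpart and 29 found only in mitochondria.

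RNA came from A375, an established human melanoma line, after 6 h with 0.01% ozonated olive oil (2 libraries, numbered 1 and 2) or 0.01% olive oil (2 libraries, numbered 1 and 2). Ozone reacts with unsaturated lipids of the oil to give ozonides and peroxides. All cells were labelled WT, came from 1 line and were grown in DMEM with 10% serum, and no untreated cells were analysed here. Library totals, numbers 1 and 2, were 23571726 and 22245807 counts with ozonated oil and 27772480 and 26609495 with olive oil. Both ozonated libraries were thus smaller than both olive oil libraries. The libraries numbered 1 stood apart from those numbered 2 in both groups. Over all tested genes, the median absolute log2 difference between numbers was 0.26 (ozonated) and 0.23 (olive oil). Between the oils it was 0.16 within number 1 and 0.19 within number 2. The first principal component held 66.4% of the variance, and the library scores on it are not given here. Whether the libraries come from separate cultures is not in the labels, and p-values here therefore reflect a spread among 4 libraries that could be technical. As to the line, SOX10, a factor of the melanocyte lineage, lay between 277.9 and 360.9 CPM (counts scaled to library size with TMM factors). MITF lay between 24.21 and 36.06 CPM, S100B between 3.318 and 9.017 CPM, and VIM between 2293.2 and 2736.1 CPM. The pigment genes PMEL and MLANA were at 1.35 CPM or less. TYR and the T cell gene CD3E had 0 counts in all 4 libraries. There, 3 counts, the limit that a count of 0 allows, correspond to 0.108 to 0.135 CPM (counting error only). Not all genes of other cell types were that low. The keratinocyte gene KRT14 lay between 7.91 and 16.37 CPM, and the endothelial gene PECAM1 between 1.98 and 3.02 CPM. KRT5, EPCAM and the leukocyte gene PTPRC lay at 0.78 CPM or less.

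Mitoribosomes translate the few proteins encoded by mitochondrial DNA, all of them hydrophobic subunits of the respiratory chain and ATP synthase. Their rRNAs come from mitochondrial DNA, while every protein subunit is encoded in the nucleus, made in the cytosol and imported. The small subunit holds the decoding site, the large subunit the peptidyl transferase site and the tunnel exit at the inner membrane. Against bacterial ribosomes, mitoribosomes have lost rRNA and gained proteins. GABP, which binds ETS motifs, YY1 and nuclear respiratory factor 1 are known regulators of many nuclear genes for mitochondria.

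The start regions of 5 members are shown because they had the smallest p-values among those lower (MRPL33, MRPL46, MRPS26) or higher (MRPL18, MRPS36) with ozonated oil and have a RefSeq window. Each runs 5′ to 3′ on the gene's strand from 150 bases before to 30 bases after the RefSeq start (GRCh38.p14), and capitals mark the motifs named below; MRPL18 is shown at the first of 3 starts listed.
MRPL33 (chr2:27771569-27771748, plus strand): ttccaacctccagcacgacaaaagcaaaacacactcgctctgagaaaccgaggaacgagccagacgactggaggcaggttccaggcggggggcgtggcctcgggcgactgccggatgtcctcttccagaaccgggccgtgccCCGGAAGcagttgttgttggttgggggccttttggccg
MRPL46 (chr15:88467359-88467538, minus strand): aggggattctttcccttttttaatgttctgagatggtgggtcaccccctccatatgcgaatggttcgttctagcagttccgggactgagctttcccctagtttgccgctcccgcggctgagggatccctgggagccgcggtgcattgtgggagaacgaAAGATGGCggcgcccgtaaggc
MRPS26 (chr20:3045902-3046081, plus strand): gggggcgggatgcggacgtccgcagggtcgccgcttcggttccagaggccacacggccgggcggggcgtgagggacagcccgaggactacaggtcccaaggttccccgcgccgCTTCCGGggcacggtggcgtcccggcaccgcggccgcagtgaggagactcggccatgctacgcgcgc
MRPL18 (chr6:159789662-159789841, plus strand): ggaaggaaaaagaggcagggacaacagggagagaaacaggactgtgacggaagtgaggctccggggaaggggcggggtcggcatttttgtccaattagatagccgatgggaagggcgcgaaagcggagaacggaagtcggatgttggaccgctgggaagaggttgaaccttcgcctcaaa
MRPS36 (chr5:69217610-69217789, plus strand): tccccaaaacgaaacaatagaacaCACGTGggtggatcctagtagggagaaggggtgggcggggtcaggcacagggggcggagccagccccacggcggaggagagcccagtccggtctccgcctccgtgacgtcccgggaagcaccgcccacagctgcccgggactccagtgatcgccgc

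Promoter windows of 300 bases (250 before and 50 after the start, RefSeq) were found for 68 of the 76 members, by gene ID. The ETS core CCGGAAG, searched on both strands, was in the windows of 30 of 68 members (44.1%), against 12.2% of 27305 genes with a window and 21.1% of 11538 tested genes with one. The YY1 core AAGATGGC was in 19 of 68 (27.9%), against 3.52% and 6.07%. The palindrome of nuclear respiratory factor 1, GCGCA and GCGC with 1 base between them, was in 8 of 68 (11.8%), against 6.98% and 12.6%, and the E-box CACGTG, a core bound by MYC, in 9 of 68 (13.2%), against 8.77% and 12.3%. Hits of different motifs overlapped in 0 members. Among the sequences shown, MRPL33 and MRPS26 hold an ETS core (in MRPS26 on the opposite strand), MRPL46 the YY1 core just after its start, and MRPS36 an E-box. The stretch shown for MRPL18 holds none of the motifs. MRPL18 is still among the 30 members with an ETS core, which lies outside that stretch. All these hits are matches of letters, not measured binding sites. The fitted log2 fold changes had a median of -0.07 in the 30 members with the ETS core and -0.07 in the 38 without, and of -0.09 in the 19 with the YY1 core and -0.07 in the 49 without. For the palindrome the medians were -0.087 in the 8 members with it and -0.072 in the 60 without. For the E-box they were -0.068 in the 9 members with it and -0.074 in the 59 without.

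All 28 small and 48 large subunit genes were expressed, at levels that varied between genes. Mean levels over the 4 libraries ran from 1.72 to 155 CPM in the small subunit (median 62.7) and from 17.7 to 285 CPM in the large (median 65.2). Scaled by the length of the principal GENCODE transcript, the medians were 34.8 CPM per kb for the small and 47.9 CPM per kb for the large subunit, against 7.43 CPM per kb over 14117 tested genes with a length. The 3 highest large subunit genes were MRPL20 (171 CPM per kb), MRPL3 (167), a homolog of bacterial L3 near the catalytic site, and MRPL51 (137). The 3 highest small subunit genes were MRPS34 (151 CPM per kb), MRPS26 (96.2) and MRPS15 (78.4). The 2 lowest in the small subunit were MRPS24 (2.43 CPM per kb) and MRPS33 (10.35). In the large subunit they were MRPL42 (6.36 CPM per kb), whose value rests on an annotated transcript of 15582 bases, and MRPL22 (13.6), a protein of the exit tunnel. MRPS24 had 46 and 24 counts with ozonated oil and 59 and 46 with olive oil, and a readthrough gene, URGCP-MRPS24, spans it. Spans of other RefSeq genes overlap 32 members and 40 have pseudogenes of their name. The library kit keeps strand, but neither the strand setting of the counting nor its treatment of shared reads is stated, and such reads may not be separated.

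The members together took 0.514% and 0.518% of the counts in the ozonated oil libraries numbered 1 and 2, against 0.541% and 0.585% in the olive oil libraries. Summed over small subunit genes, the level was 1759.6 and 1840.9 CPM with ozonated oil and 1850.7 and 1988.5 CPM with olive oil. Both ozonated libraries were thus lower, by 6.22% between means of 1800 ± 57.5 and 1920 ± 97.4 CPM (SD, n = 2 each; exact permutation p = 0.333, two-sided, the smallest that 2 against 2 libraries allow). The margin between the groups was narrow, from 1840.9 CPM in ozonated olive oil replicate 2 to 1850.7 CPM in olive oil replicate 1. For the large subunit the sums were 3393.4 and 3484.5 CPM with ozonated oil and 3467.8 and 3790.4 CPM with olive oil. Those groups overlapped, since ozonated olive oil replicate 2 lay above olive oil replicate 1 (5.24% between means; exact permutation p = 0.667). The ratio of the large to the small sum was 1.93 and 1.89 with ozonated oil and 1.87 and 1.91 with olive oil, and those values overlapped as well (exact permutation p = 0.667). Levels are shares of bulk RNA, in which fewer cells with a transcript and less of it per cell cannot be told apart.

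The comparison of the oils asked how mitoribosomal protein transcripts differ after the ozonated oil. Most members had slightly lower levels with it: the fitted log2 fold change (ozonated over olive oil) was below 0 in 61 of 76, with a median of -0.07, a middle 50% from -0.16 to -0.01 and a range from -0.31 to 0.53. Over all 14841 tested genes the median was 0.00 and 49.9% lay below 0. The small subunit had a median of -0.07 (23 of 28 below 0) and the large a median of -0.08 (38 of 48 below 0). With MRPS18A and MRPS30, which sit in the large subunit despite their names, counted there, the medians were -0.071 and -0.074. No member passed the test across all genes (edgeR's quasi-likelihood test, Benjamini-Hochberg adjustment, threshold 0.05), nor did any other gene (0% of 14841; smallest adjusted p = 0.748). Unadjusted, 0 members and 570 of all genes (3.84%) had a p under 0.05, with 0 members higher (1.99% of all genes) and 0 lower (1.85%). DESeq2, limma-voom and the edgeR exact test also called 0 members, although DESeq2 and the exact test called 59 and 35 of all genes. With the replicate number as a block, 2 members passed, against 5.67% of all tested genes; the labels do not give that pairing. The small size of the medians is sensitive to single libraries: without olive oil replicate 2 they were -0.01 (small) and -0.03 (large), and without olive oil replicate 1 they were -0.13 and -0.15. With library totals alone as the scale they were -0.11 and -0.12. Without ozonated olive oil replicate 2 the small subunit median was -0.10.

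**Figure D1:**
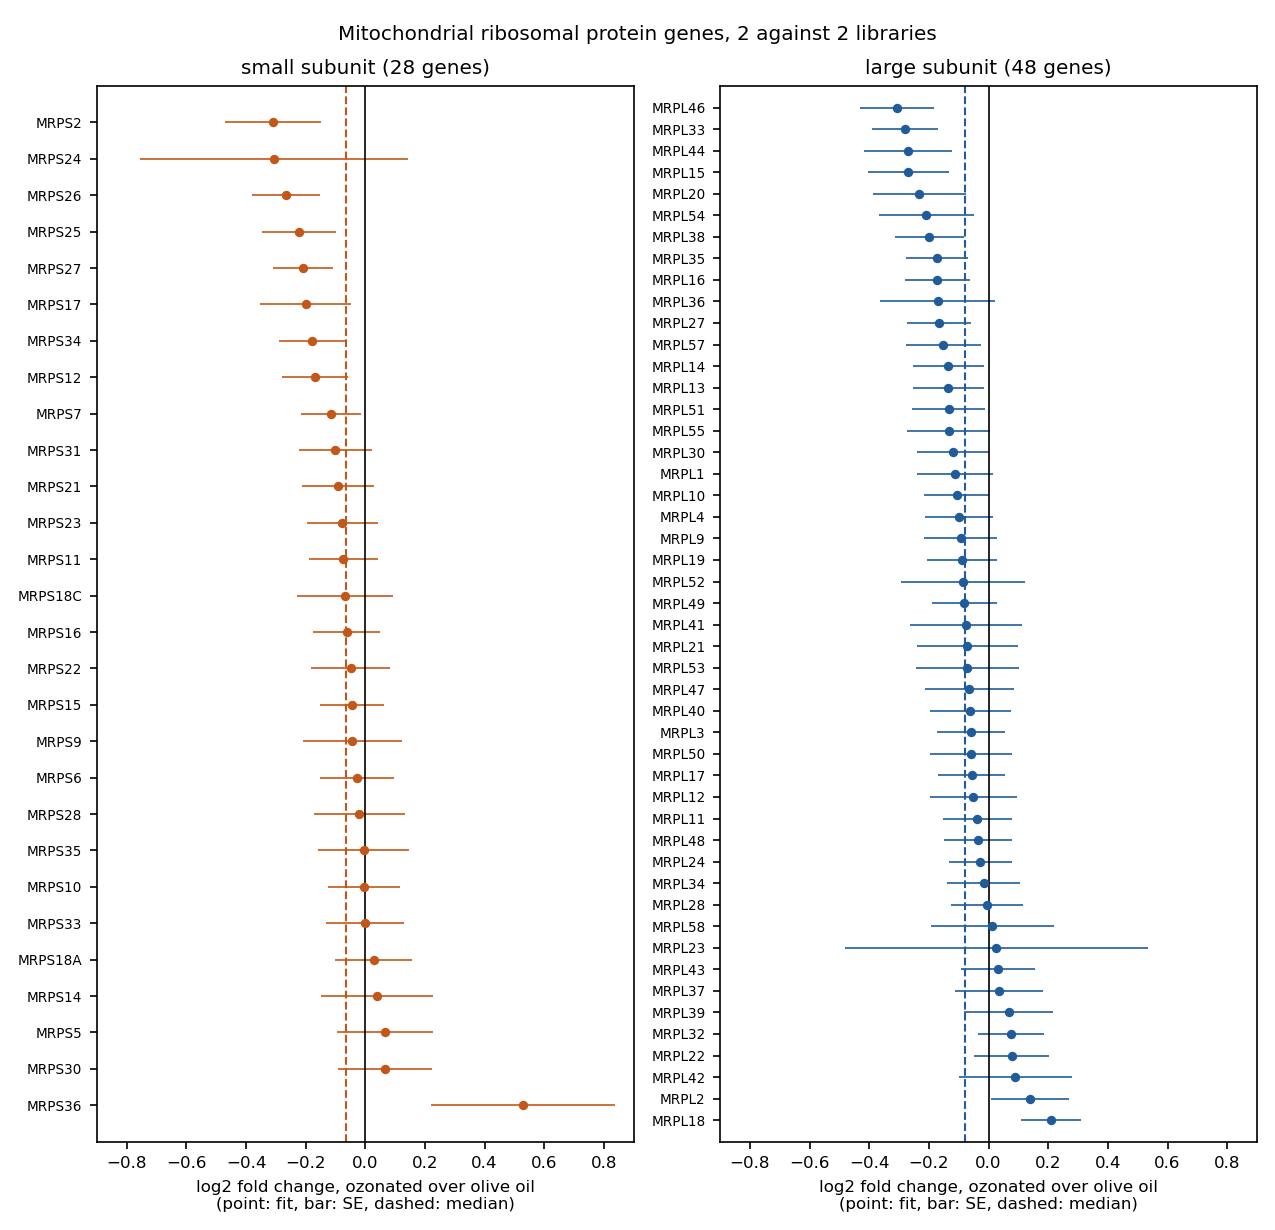
Fitted log2 fold change of each small (left) and large subunit gene (right), ozonated over olive oil, from 2 against 2 libraries. Points are fitted values, bars their SE and dashed lines the subunit medians (-0.07 and -0.08); most points lie left of 0 (61 of 76).

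Because the libraries split by their number, the oils were also compared within each number, 1 library against 1, with no test. Of 76 members, 41 were lower with ozonated oil within both numbers (53.9%, against 31.1% of all tested genes) and 9 were higher within both (11.8%, against 31.6%). By subunit, 14 of 28 small (50%) and 27 of 48 large subunit genes (56.2%) were lower within both. The differences were not equal in the 2 numbers: the median log2 difference was -0.02 within number 1 and -0.14 within number 2, where all tested genes had medians of 0.00 and 0.00. Within number 1, 45 of 76 members were lower (50.1% of all tested genes), and within number 2, 63 of 76 (49.4%). In 55 of 76 the difference was more negative within number 2 (49.4% of all tested genes). The contrast between the numbers was not tested, since each holds 1 library per oil. Both ozonated libraries lay below both olive oil libraries in 26 members (34.2%, against 15.7% of all tested genes) and above them in 3 (3.95%, against 15.3%). With library totals alone as the scale, 5 members were higher within both numbers and 47 lower, and the median of all tested genes itself moved to -0.04.

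**Figure D2:**
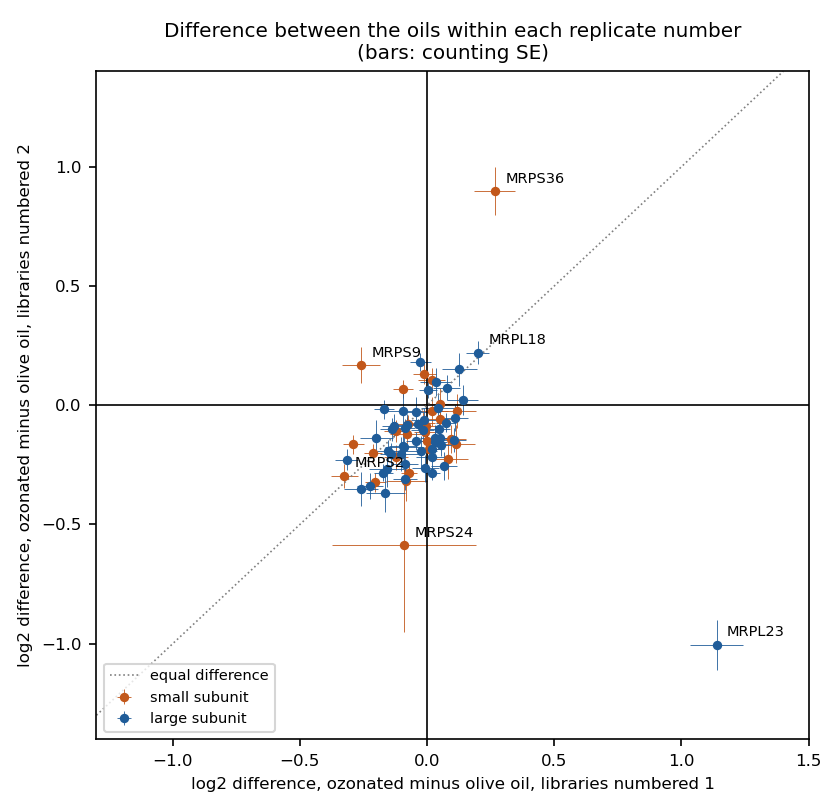
Log2 difference between ozonated and olive oil in the libraries numbered 1 (horizontal) and numbered 2 (vertical) for each small and large subunit gene, with counting SE as bars. Most points lie below the horizontal line at 0 and below the dotted line of equal differences; MRPL23 lies far off at 1.138 and -1.004.

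Counting error on these within-number differences had a median SE of 0.051 and reached 0.36 for the lowest member. Across all 76 members the 2 sets of differences had a Pearson r of -0.08 and a Spearman rho of 0.38. Leaving out MRPL23, MRPS24 and MRPS36, chosen after their values were seen, r was 0.43 over 73 members. Over all tested genes, r was 0.233 and rho 0.307. These are descriptions across genes of the same 4 libraries.

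Among small subunit genes, MRPS2, a homolog of bacterial S2, had 52.1 and 63.8 CPM in the ozonated libraries numbered 1 and 2, against 65.3 and 78.4 CPM in the olive oil libraries. The groups did not overlap, by a narrow margin, and the library numbered 2 was the higher in each oil. Its log2 fold change was -0.31 ± 0.16 (SE), with -0.33 and -0.30 within numbers 1 and 2. It was -0.170 without ozonated olive oil replicate 1 and -0.169 without olive oil replicate 2. MRPS26, a subunit found only in mitochondria (chromosome 20), had 97.1 and 99.9 CPM with ozonated oil and 111.8 and 125.0 CPM with olive oil, again without overlap (-0.27 ± 0.11, SE; unadjusted p = 0.0657). MRPS27, a pentatricopeptide repeat protein of the mitoribosome, had 114 and 111 CPM against 132 and 128 CPM in the olive oil libraries. Its libraries of 1 oil differed little (-0.21 ± 0.10; unadjusted p = 0.0957). MRPS25, also found only in mitochondria, had 86.2 and 100.2 CPM with ozonated oil and 105 and 112 CPM with olive oil (-0.22 ± 0.13), and NR2C2 overlaps its span. Without ozonated olive oil replicate 1 the value of MRPS25 was -0.119, and without ozonated olive oil replicate 2 it was -0.336.

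MRPS12, the homolog of bacterial S12 at the decoding centre, had 67.4 and 60.9 CPM with ozonated oil and 73.4 and 70.8 CPM with olive oil. MRPS34, known from mitochondrial disease, had 150.2 and 140.0 CPM against 158 and 170.4 CPM in olive oil libraries, and MRPS7, of the small subunit head, had 82.2 and 81.0 CPM against 89.6 and 87.2 CPM. None of these groups overlapped, and the log2 fold changes were -0.17, -0.18 and -0.12. Overlapping groups were seen for MRPS22 (-0.05), MRPS15 (-0.045), MRPS33 (0.00), MRPS18C (-0.07), and for MRPS18A (0.03) and MRPS30 (0.07), which carry the small subunit's name but sit in the large subunit. The paralogs MRPS18A and MRPS18C both descend from bacterial S18. MRPS5, a homolog of bacterial S5, had 0.07 ± 0.16. The low MRPS24 had -0.305 ± 0.449 and overlapping groups. Its differences within numbers 1 and 2 were -0.091 and -0.586, at counting SEs of 0.284 and 0.363.

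MRPS36 had the highest fitted fold change of the members with all 4 libraries, but not without olive oil replicate 2. It is also known as KGD4, a subunit of the 2-oxoglutarate dehydrogenase complex, and its place in the mitoribosome has been revised. Counts were 650 and 523 with ozonated oil and 649 and 349 with olive oil, that is 27.7 and 24.2 CPM against 23.0 and 12.95 CPM. The groups did not overlap, and olive oil replicate 2 was the lowest of the 4 libraries. The log2 fold change was 0.53 ± 0.31 (SE; unadjusted p = 0.148), with 0.27 and 0.90 within numbers 1 and 2, and 6 pseudogenes carry its name. Without olive oil replicate 2 it was 0.175, below other members such as MRPL23 (0.746), MRPL58 (0.230), MRPL42 (0.218) and MRPL18 (0.196). Without olive oil replicate 1 the value of MRPS36 was 0.999.

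In the large subunit the smallest p-value belonged to MRPL33, the homolog of bacterial L33, with 59.4 and 53.5 CPM in ozonated libraries and 69.4 and 67.7 CPM in olive oil libraries. The groups were well apart for this gene (-0.28 ± 0.11, SE; unadjusted p = 0.0557). MRPL46, found only in mitochondria (chromosome 15, 88459478 to 88467388), had 32.1 and 31.9 CPM against 38.5 and 40.7 CPM with olive oil (-0.31 ± 0.12; unadjusted p = 0.0574). MRPS11, whose start lies 320 bases from that of MRPL46 in the opposite direction, had 52.0 and 46.9 CPM with ozonated oil and 51.9 and 52.1 CPM with olive oil, so these neighbours differed by unequal amounts (-0.07 for MRPS11); the difference between them was not tested. MRPL15, a homolog of bacterial L15, had 73.6 and 86.9 CPM against 91.7 and 101.8 CPM in olive oil libraries (-0.27 ± 0.14), and -0.155 without ozonated olive oil replicate 1. MRPL44, a subunit with a ribonuclease III fold, had 26.2 and 25.6 CPM against 29.3 and 33.1 CPM (-0.27 ± 0.15), and -0.178 without olive oil replicate 2. MRPL20, the member of highest level per kb, had -0.23 ± 0.16 and overlapping groups, and -0.065 without olive oil replicate 2.

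MRPL18, a homolog of bacterial L18 with a known cytosolic form that takes part in the translation of heat shock mRNAs, had higher values with ozonated oil (chromosome 6, 159789812 to 159798429). Its level was 82.5 and 81.9 CPM in the ozonated libraries and 71.8 and 70.3 CPM in the olive oil libraries, with little spread within each oil and no overlap. The log2 fold change was 0.21 ± 0.10 (SE; unadjusted p = 0.093), with 0.20 and 0.22 within numbers 1 and 2. MRPL2, a homolog of bacterial L2 at the catalytic core, had 35.8 and 39.0 CPM against 32.8 and 35.1 CPM with olive oil (0.14 ± 0.13; 0.076 without ozonated olive oil replicate 2 and 0.087 without olive oil replicate 1), and MRPL32 had 0.08 ± 0.11 with overlapping groups. MRPS36, MRPL18 and MRPL2 were the 3 members above olive oil in both libraries.

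**Figure D3:**
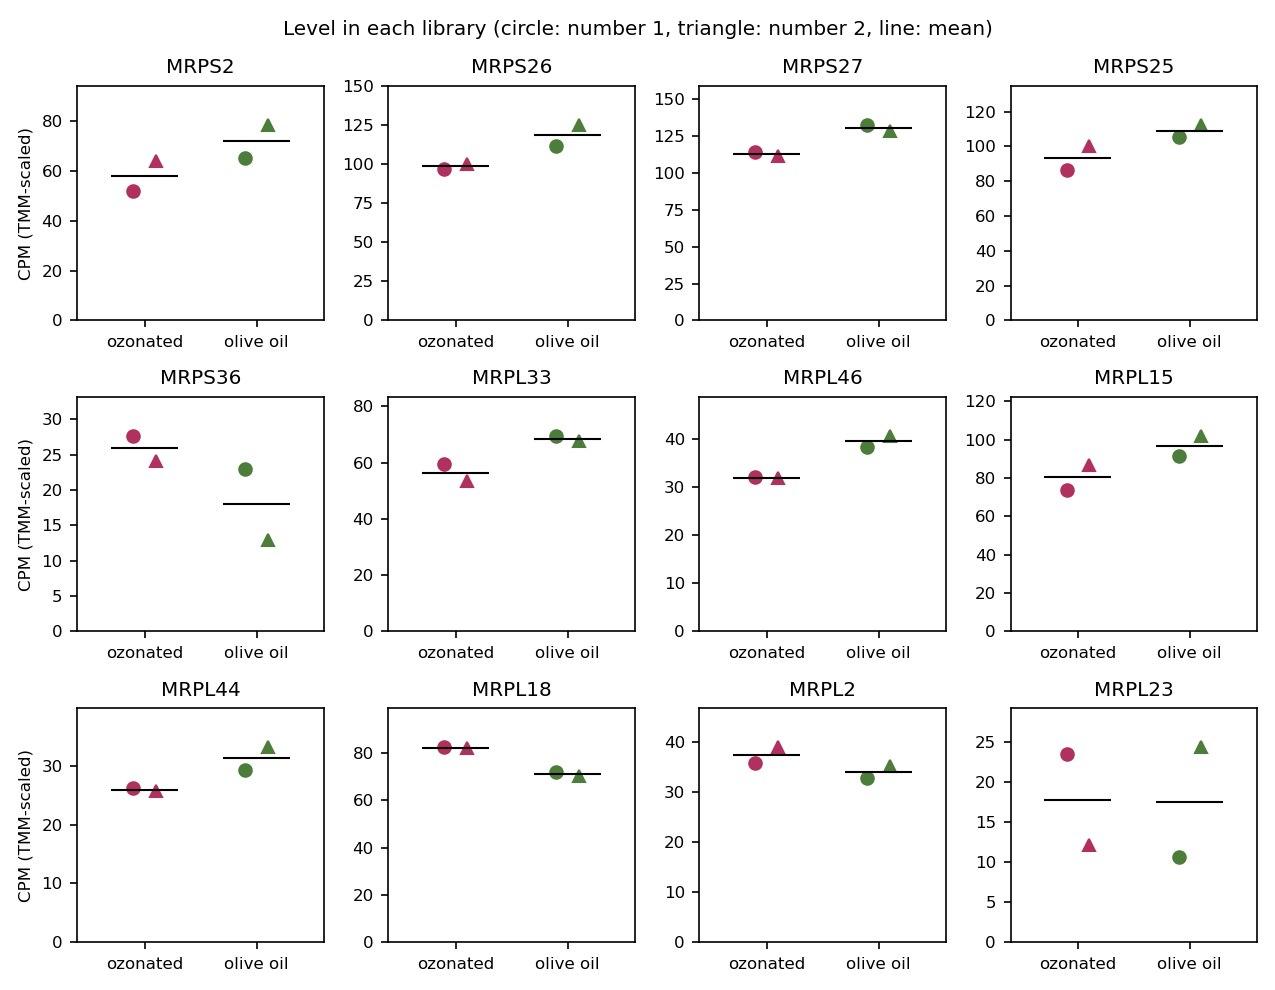
TMM-scaled CPM in each library for 12 members, ozonated oil left and olive oil right, number 1 as circles and number 2 as triangles, lines at the means. MRPS2, MRPS25, MRPS26, MRPS27, MRPL15, MRPL33, MRPL44 and MRPL46 are lower in both ozonated libraries, MRPS36, MRPL2 and MRPL18 higher, and MRPL23 is mixed.

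The other large subunit genes named had fitted log2 fold changes between -0.17 and 0.09. The stalk proteins MRPL10 and MRPL12, of which MRPL12 also binds the mitochondrial RNA polymerase, had -0.11 ± 0.11 and -0.05 ± 0.15, and MRPL11, at the base of the stalk, -0.04 ± 0.12. MRPL3 had 269 and 289 CPM with ozonated oil and 276 and 306 CPM with olive oil (-0.06 ± 0.11). MRPL36, a homolog of bacterial L36, had -0.17 ± 0.19 and MRPL57 -0.15 ± 0.13, and MRPL57 has 8 pseudogenes of its name. MRPL51 had -0.13 ± 0.12, MRPL41 -0.08 ± 0.19, MRPL22 0.08 ± 0.13 and MRPL42 0.09 ± 0.19. The numbers disagreed for MRPL41, with 0.068 within number 1 and -0.255 within number 2. MRPL39, which resembles a tRNA synthetase, had 0.07 ± 0.15, and MRPL58 (ICT1), a peptidyl-tRNA hydrolase built into the ribosome that frees stalled chains, had 0.01 ± 0.21.

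MRPL23 showed the largest disagreement between the numbers. The level was 23.5 and 12.1 CPM in the ozonated libraries and 10.6 and 24.4 CPM in the olive oil libraries, so each oil had 1 high and 1 low library. The differences were 1.14 within number 1 and -1.004 within number 2, at counting SEs near 0.10. The fitted value was 0.03 ± 0.51. The RefSeq span of this gene overlaps H19, MIR675 and MRPL23-AS1, and whether their reads enter its count was not tested.

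Split by origin, the 45 members with a bacterial counterpart had a median of -0.07 and the 29 found only in mitochondria -0.08. Lower within both numbers were 25 (55.6%) and 16 (55.2%), against 31.1% of all tested genes. The within-number medians were -0.02 and -0.14 for members with a counterpart and -0.07 and -0.14 for those without. Without olive oil replicate 2 the fitted medians were -0.008 with and -0.068 without a counterpart, and without olive oil replicate 1 they were -0.137 and -0.131.

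Members also differed between the replicate numbers within each oil. The median of number 2 minus number 1 was 0.03 with ozonated oil and 0.12 with olive oil, and the median absolute difference between numbers was 0.12 and 0.15. Between the oils, it was 0.08 within number 1 and 0.15 within number 2. For all tested genes the absolute differences between numbers were 0.26 (ozonated) and 0.23 (olive oil), and those between the oils 0.16 and 0.19.

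Other genes of mitochondrial gene expression were taken from 8 lists with 121 entries. Of these, 108 were found under their symbol and 12 under a synonym in RefSeq. Without a block, no gene passed the test in either direction in any list. With the replicate number as a block, 11 passed, against 841 of all 14841 tested genes (5.67%). Mitoribosomal proteins with other names (5 tested) had a median of -0.10 with 0.08 and -0.24 within numbers, and the median ran from -0.193 without ozonated olive oil replicate 1 to -0.018 without olive oil replicate 2. Among these DAP3, the GTP-binding subunit mS29, had 223 and 234 CPM with ozonated oil and 196 and 208 CPM with olive oil (0.18 ± 0.11), while AURKAIP1 had -0.12 ± 0.11 and CHCHD1 -0.13 ± 0.17. Assembly factors and rRNA modifying enzymes (27 tested) had a median of -0.09, and 21 were lower within both numbers (77.8%, against 31.1% of all tested genes). Leaving out ozonated olive oil replicate 2 gave a median of -0.205. With olive oil replicate 1 left out it was -0.216, and with olive oil replicate 2 left out -0.035. The rRNA methyltransferase MRM2 had 45.2 and 43.6 CPM against 51.2 and 62.3 CPM with olive oil (-0.36 ± 0.14), the assembly factor MPV17L2 -0.33 ± 0.14 and the helicase DHX30 -0.07 ± 0.10. MRM1, another such methyltransferase, had only 0.26 and 0.19 CPM against 0.92 and 0.74 CPM with olive oil (unadjusted p = 0.0199). That rests on 6 and 4 counts with ozonated oil and 26 and 20 with olive oil. The counting SEs of its within-number differences were 0.65 and 0.79.

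Translation factors (17 tested) had a median of -0.05. Within both numbers, 7 were lower (41.2%) and 4 higher (23.5%), against 31.1% and 31.6% of all tested genes. TACO1, the translational activator of COX1, had 33.3 and 34.2 CPM with ozonated oil and 41.1 and 46.0 CPM with olive oil (-0.37 ± 0.13; unadjusted p = 0.0367). MTRES1 had -0.47 ± 0.26, the initiation factor MTIF2 -0.18 ± 0.11 and the abundant elongation factor TUFM 0.10 ± 0.11. Aminoacyl-tRNA synthetases (19 tested) had a median of -0.03. Of these, 7 were lower (36.8%) and 5 higher (26.3%) within both numbers, against the same 31.1% and 31.6%. MARS2, the methionine enzyme, had 24.5 and 19.7 CPM against 33.1 and 35.5 CPM with olive oil (-0.64 ± 0.17; unadjusted p = 0.0143), PARS2 had -0.53 ± 0.32, RARS2 0.28 ± 0.15 and IARS2 0.09 ± 0.12.

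Genes of mitochondrial transcription and RNA processing had fitted values below 0 in 18 of 18 (49.9% of all tested genes), at a median of -0.15. The within-number medians were -0.15 and -0.19, and 15 were lower within both numbers (83.3%, against 31.1% of all tested genes). Without olive oil replicate 2 the fitted median was -0.099. FASTKD3 had 24.5 and 19.5 CPM with ozonated oil and 34.3 and 32.0 CPM with olive oil (-0.59 ± 0.18; unadjusted p = 0.0205). TRMT10C, a subunit of mitochondrial RNase P, had -0.31 ± 0.12, the terminator MTERF1 -0.32 ± 0.17 and the RNase Z ELAC2 -0.16 ± 0.11. Among nuclear regulators (10 tested, median -0.02) the coactivator PPARGC1B had 13.4 and 15.7 CPM against 26.6 and 20.2 CPM with olive oil (-0.68 ± 0.22; unadjusted p = 0.026), PPRC1 had -0.10 ± 0.18 and YY1 0.09 ± 0.12. MYC, which is in this list, had 19.0 and 12.3 CPM with ozonated oil and 30.2 and 32.4 CPM with olive oil (-0.997 ± 0.25; unadjusted p = 0.0104).

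Transcripts of mitochondrial DNA mostly had higher values with ozonated oil. Of 13 protein genes 12 were matched and tested, with MT-CO2 not analysed here, and 10 had values above 0 with a median of 0.20. Higher levels within both numbers were seen for 8 of 12 (66.7%, against 31.6% of all tested genes). Lower ones were seen for 0 (against 31.1%). The 12 genes share the mitochondrial DNA and need not vary independently. Both within-number medians were 0.24. The median was 0.092 without ozonated olive oil replicate 1 and 0.086 without olive oil replicate 2. ATP6 had 2701.9 and 2488.7 CPM with ozonated oil and 2106.9 and 1923.8 CPM with olive oil (0.37 ± 0.11; unadjusted p = 0.0223), and ATP8, which overlaps it, 0.41 ± 0.11. ND4 had 0.34 ± 0.13 and COX1, the most abundant, 0.27 ± 0.14. Chaperones and proteases of the mitochondrial stress response (11 tested) had a median of 0.06, with LONP1 at 0.17 ± 0.11, CLPX at 0.12 ± 0.13 and HSPD1 at 0.12 ± 0.13. Within both numbers, 7 of these 11 were higher (63.6%, against 31.6% of all tested genes) and 0 lower (against 31.1%). Their median was -0.006 without ozonated olive oil replicate 2.

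**Figure D4:**
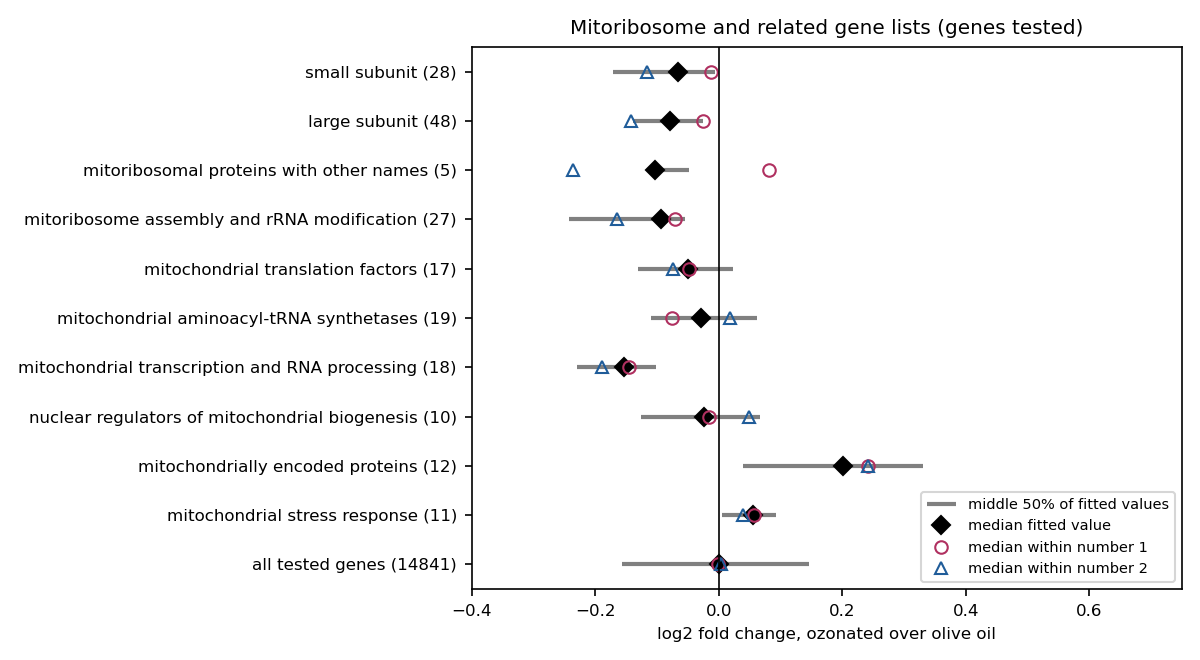
Log2 fold change, ozonated over olive oil, for the subunits and the other lists, with the number of genes tested in brackets; diamonds are median fitted values, bars the middle 50% of fitted values, circles and triangles the medians within numbers 1 and 2. The list of mitochondrial transcription and RNA processing lies at -0.15 and that of mitochondrially encoded proteins at 0.20, against 0.00 for all tested genes.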

How the data were processed

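The authors deposited raw counts per gene, whole numbers in 1 column per library. Per the submitters' processing notes, without roles, the tools were HISAT2 2.1.0, SAMtools 1.9, StringTie 1.3.4d, bedtools 2.27.1, FastQC 0.11.7, edgeR and bcl2fastq, and the build hg38. For the counter, strand setting and annotation, nothing is given in the sources used here. The deposited counts went into edgeR 4.0.16 (R 4.3.3): filterByExpr by group (14841 genes), TMM factors from 0.972 to 1.017, and the quasi-likelihood test of ozonated over olive oil, two-sided, with Benjamini-Hochberg adjustment over all tested genes and no block. Each SE is the fitted log2 fold change over the root of its F. Within-number differences are log2 CPM with a prior count of 2. Lengths and GC content are those of the APPRIS principal transcript in GENCODE 29 (longest where none is marked; 95.1% of tested genes), and coordinates and promoters those of RefSeq on GRCh38.p14.

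Named are 22 genes set by role, of which MRPL45 was left out, and, in each subunit, the 4 members of smallest p, 3 of highest and 2 of lowest level per kb, up to 3 each way whose smaller within-number difference was largest (average log2 CPM 2 or more), and 2 whose numbers disagree most; from each other list, the 3 of smallest p and the most abundant. MRPS11 and MRPL23's neighbours were added after their values were seen. The members and lists were chosen with earlier results of these data known. Tried besides were RLE, upper quartile and total count scaling, no filter and a strict filter (CPM 10), limma-voom (limma 3.58.1), DESeq2 1.42.0, edgeR's exact test, a replicate block, GC and length offsets (mgcv 1.9.3) and each library left out in turn.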

Additional observations from a re-analysis of the deposited data

How the results depend on the processing

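The count of members past the threshold was 0 in the alternatives run, except with the replicate block (2: MRPS36 higher, MRPS2 lower) and with the replicate block plus GC and length offsets (5, all lower: MRPL20, MRPL33, MRPS26, MRPL15 and MRPS2). The labels do not say that equal numbers are a pair, although same-numbered libraries deviated together (correlation 0.672), and 2 pairs are too few to settle it. Over all genes the replicate block called 841 (1063 with offsets), DESeq2 59, the edgeR exact test 35, and fits without 1 library 0 to 4; in the other lists the block called 11 genes (13 with offsets). The large subunit median was -0.121 with library totals as the scale and -0.152 to -0.031 without 1 library, and 5 members were higher within both numbers with library totals. Medians of both subunits stayed below 0 in the alternatives run. Without 1 library, medians spanned 0 for translation factors (-0.131 to 0.050), tRNA synthetases (-0.110 to 0.048), nuclear regulators (-0.136 to 0.039) and the stress response (-0.006 to 0.111).

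Single genes near 0 changed sign: MRPS18A (-0.016), MRPL58 (-0.033) and MRPL23 (-0.011) with library totals, MRPL58 (-0.002) with upper quartile scaling, MRPS33 with RLE, DESeq2 and GC and length offsets (0.003 each; 0.001 with the replicate block added), and with those offsets MRPL42 (-0.004; -0.006 with the block) and MRPL23 (-0.032). Without 1 library, the ranges that span 0 were those of CHCHD1 (-0.261 to 0.010), HSPD1 (-0.006 to 0.231), IARS2 (-0.014 to 0.195), MRPL11 (-0.113 to 0.039), MRPL12 (-0.201 to 0.115), MRPL22 (-0.010 to 0.171), MRPL23 (-0.530 to 0.746), MRPL3 (-0.133 to 0.019), MRPL36 (-0.339 to 0.019), MRPL39 (-0.065 to 0.191), MRPL41 (-0.331 to 0.140), MRPL42 (-0.152 to 0.297), MRPL58 (-0.178 to 0.230), MRPS15 (-0.096 to 0.007), MRPS18A (-0.038 to 0.096), MRPS18C (-0.184 to 0.038), MRPS22 (-0.161 to 0.071), MRPS24 (-0.772 to 0.044), MRPS30 (-0.108 to 0.222), MRPS33 (-0.106 to 0.098), MRPS5 (-0.103 to 0.216), PPRC1 (-0.355 to 0.124) and YY1 (-0.016 to 0.189). Without a change of sign, 1 library moved these by over 1.5 times: AURKAIP1 (-0.193 to -0.042), CLPX (0.011 to 0.215), COX1 (0.148 to 0.393), DHX30 (-0.119 to -0.024), LONP1 (0.094 to 0.242), MRM2 (-0.492 to -0.204), MRPL10 (-0.169 to -0.048), MRPL15 (-0.393 to -0.155), MRPL2 (0.076 to 0.2), MRPL20 (-0.384 to -0.065), MRPL32 (0.022 to 0.131), MRPL44 (-0.357 to -0.178), MRPL51 (-0.237 to -0.024), MRPS12 (-0.245 to -0.098), MRPS2 (-0.464 to -0.169), MRPS25 (-0.336 to -0.119), MRPS36 (0.175 to 0.999), MTERF1 (-0.443 to -0.182), MTIF2 (-0.265 to -0.102), MTRES1 (-0.745 to -0.244), ND4 (0.225 to 0.465), PARS2 (-0.940 to -0.213), RARS2 (0.162 to 0.412) and TUFM (0.023 to 0.170). The cause was not tested. Leaving out a library mixes the oil with the number. The 2 libraries per oil limit every comparison, and the median counting SE of a within-number difference was 0.051.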
